A study of Mus musculus with 4 samples.

Results

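The genes described here are 10 lipid handling genes of the PPAR-γ and LXR receptor systems, read in mouse macrophages: Pparg, Nr1h3, Fabp4, Fabp5, Lpl, Plin2, Abca1, Abcg1, Apoe and Mylip. They were taken by gene symbol from the 19938 genes that the array measured with a probe set of their own, and all 10 were found, 9 with 1 probe set and Fabp5 with 2. The macrophages were grown from the bone marrow of C57BL/6N mice, all in M-CSF at 10 ng/mL, and were harvested on day 9. The 4 groups were M2 with IL-1α, M2 with vehicle, M1 with IL-1α and M1 with vehicle. M2 cells had been stimulated with 20 ng/mL interleukin-4 for 48 h and M1 cells with 10 ng/mL interferon-γ for 48 h. IL-1α, an inflammatory cytokine, was given at 10 ng/mL for 24 h. Each group is 1 array, so no level has a standard deviation, and no difference between a pair of arrays has a replicate check. The study asked whether M1 and M2 macrophages differ in their response to IL-1α.

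PPAR-γ is a nuclear receptor that fatty acids activate, and interleukin-4 is known to induce it in macrophages. LXR-α is a nuclear receptor that oxysterols, the hydroxylated products of cholesterol, activate. Both bind DNA together with a retinoid X receptor (RXR). PPAR-γ target genes bind, take up and store fatty acids, and LXR target genes send cholesterol out of the cell or limit its uptake.

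All levels are RMA log2 signals and all differences are differences of log2 signal, so 1 unit is 2-fold. A floor of 7.62, the median over all genes and arrays, marked signals not shown to be above background. All 10 genes read above it on all 4 arrays, at signals from 9.05 to 13.66. The arrays correlated at 0.996 within M2, at 0.997 within M1 and at 0.962 to 0.966 between phenotypes. The 8 macrophage markers checked, among them Csf1r, Adgre1 and Cd68, were above the floor on every array. By limma, all 4 interleukin-4 markers measured were higher in M2, and 2 of 3 interferon-γ markers (Nos2 and Cxcl9) were lower. The other, Ciita, a regulator of antigen presentation genes, did not separate the phenotypes, at 9.01 and 9.16 in M2 (IL-1α, vehicle) and 9.08 and 9.28 in M1 (limma adjusted p = 0.33). Arg1, which degrades arginine, read 12.41 and 12.48 in M2 (IL-1α, vehicle) and 6.55 and 6.75 in M1. Nos2, which makes nitric oxide, read 7.13 and 6.79 in M2 and 13.02 and 13.00 in M1.

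The difference between the phenotypes was the main pattern among these genes. Under vehicle, 3 of the 10 were at least 2-fold higher in M2 than in M1, against 7.03% of the 10489 genes compared, and 1 of the 10 was at least 2-fold lower, against 6.83%. The 3 were Fabp4, Pparg and Abcg1, and the 1 was Nr1h3. With IL-1α on both sides, 3 were at least 2-fold higher, against 8.15% of 10479 genes, and 1 was lower, against 6.06%. Those 3 were Fabp4, Pparg and Fabp5, and the 1 was again Nr1h3. Abcg1, Abca1 and Fabp5 lay close to the 2-fold line in both comparisons, with differences from 0.83 to 1.02. The median difference of the 10 genes was 0.86 under IL-1α, against 0.03 over all genes, and 0.77 under vehicle, against 0.01.

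The only model with a residual degree of freedom was a limma fit of all 4 arrays with phenotype and treatment as additive terms, in which a gene was called at a Benjamini-Hochberg adjusted p under 0.05. Its phenotype term was positive and past the threshold for 7 of the 10 genes, against 33.2% of all 10625 genes, and negative and past it for 2, against 29.3%. The 2 lower were Nr1h3 and Mylip, and Apoe was not called. The p-values set an effect against the departure from additivity in 4 arrays, with 1 residual degree of freedom per gene plus 10.05 borrowed across genes. The labels do not say whether the arrays came from separate cultures or animals, so the p-values measure no spread between cultures or animals. In bulk RNA, fewer cells of a type and less RNA per cell cannot be told apart.

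**Figure D1:**
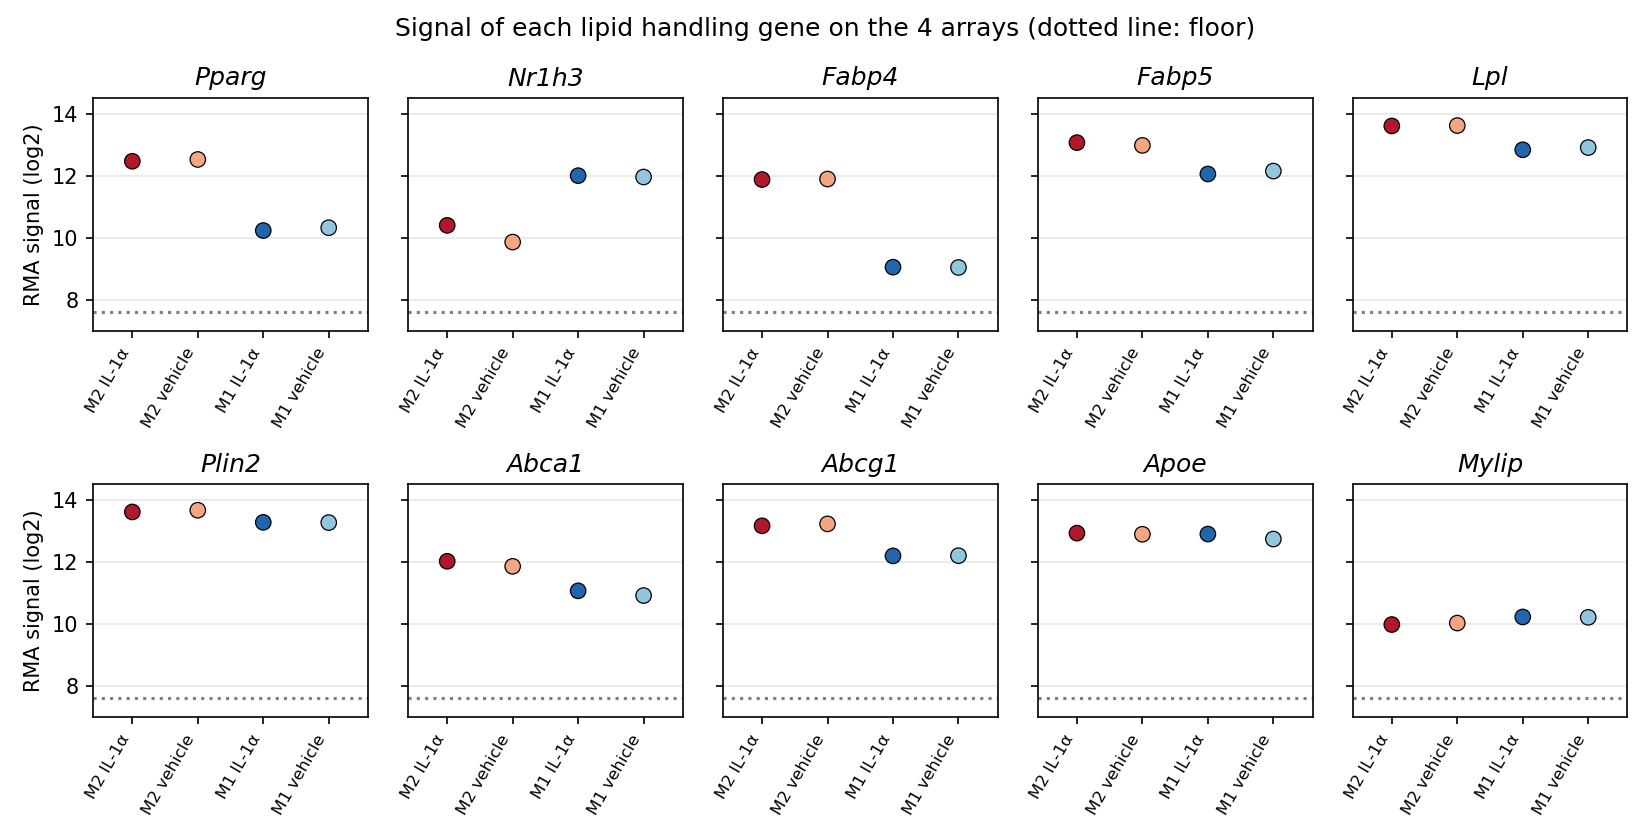
Each panel plots the RMA log2 signal of 1 gene on the 4 arrays, with the floor of 7.62 as a dotted line. Pparg and Fabp4 stand higher on both M2 arrays and Nr1h3 on both M1 arrays, while Apoe, Plin2 and Mylip vary little.

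The receptor genes differed between the phenotypes in opposite directions. Pparg, which encodes PPAR-γ, read 12.46 (IL-1α) and 12.52 (vehicle) in M2 cells, against 10.24 (IL-1α) and 10.33 (vehicle) in M1 cells. Both M2 arrays lay above both M1 arrays, by 4.69-fold under IL-1α and 4.58-fold under vehicle. Only 178 of 10489 genes (1.70%) had a higher M2 minus M1 difference under vehicle. The limma phenotype effect was 2.21 ± 0.06 (SE, limma adjusted p = 3.14e-11).

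Nr1h3, which encodes LXR-α, read 10.40 (IL-1α) and 9.86 (vehicle) in M2 cells, against 12.00 (IL-1α) and 11.96 (vehicle) in M1 cells. Both M2 arrays lay below both M1 arrays, by 3.03-fold under IL-1α and 4.27-fold under vehicle. Under vehicle, 234 of 10489 genes had a lower M2 minus M1 difference. The limma phenotype effect was -1.85 ± 0.10 (SE, limma adjusted p = 1.15e-08). Its standard error was the largest of the 10 genes, and its M2 minus M1 difference was -1.60 under IL-1α and -2.09 under vehicle.

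The promoter windows of these receptor genes and of their classical targets are shown because the receptor genes differed in opposite directions. RefSeq windows of GRCm38.p6, 250 bases before to 50 bases after each annotated start, were at hand for 6 of the 10 genes (Pparg, Nr1h3, Plin2, Abca1, Apoe and Mylip), 11 windows in all. They are printed 5′ to 3′ on the strand of the gene, with motif matches in capitals. The motifs searched, on both strands, were the nuclear receptor half-site AGGTCA, the LXR repeat (AGGTCA and again AGGTCA after 4 bases), the PPAR repeat (AGGTCA and again AGGTCA after 1 base), the STAT6 motif (TTC and GAA with 4 bases between) and the NF-κB consensus. Up to 3 mismatches were allowed in a repeat and none in the others. Matches of the half-site and of the repeats can overlap.
Nr1h3, chr2:91195067-91195366, minus strand: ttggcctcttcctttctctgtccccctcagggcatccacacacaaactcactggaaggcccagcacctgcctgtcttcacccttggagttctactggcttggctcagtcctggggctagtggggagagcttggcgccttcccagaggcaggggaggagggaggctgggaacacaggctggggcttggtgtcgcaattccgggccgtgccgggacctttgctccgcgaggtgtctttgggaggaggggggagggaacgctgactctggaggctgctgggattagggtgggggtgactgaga
Pparg, chr6:115362099-115362398, plus strand: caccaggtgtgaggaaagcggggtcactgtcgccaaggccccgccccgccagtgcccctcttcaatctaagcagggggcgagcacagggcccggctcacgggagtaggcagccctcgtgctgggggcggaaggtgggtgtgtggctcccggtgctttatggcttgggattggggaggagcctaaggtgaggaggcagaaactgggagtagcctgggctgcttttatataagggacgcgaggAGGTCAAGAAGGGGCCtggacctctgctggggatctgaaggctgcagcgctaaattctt
Abca1, chr4:53159846-53160145, minus strand: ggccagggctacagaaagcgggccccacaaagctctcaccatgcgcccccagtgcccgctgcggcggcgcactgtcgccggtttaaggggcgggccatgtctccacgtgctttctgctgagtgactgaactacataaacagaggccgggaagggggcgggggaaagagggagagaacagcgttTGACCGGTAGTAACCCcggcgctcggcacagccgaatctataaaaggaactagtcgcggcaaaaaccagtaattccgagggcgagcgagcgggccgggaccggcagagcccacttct
Plin2, chr4:86670010-86670309, minus strand: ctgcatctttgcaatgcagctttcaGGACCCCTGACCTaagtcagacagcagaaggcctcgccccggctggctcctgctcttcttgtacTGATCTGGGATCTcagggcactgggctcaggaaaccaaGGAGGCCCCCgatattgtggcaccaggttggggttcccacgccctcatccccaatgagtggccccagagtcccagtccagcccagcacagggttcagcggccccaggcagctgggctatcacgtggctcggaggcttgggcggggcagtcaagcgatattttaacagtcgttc
The Nr1h3 window held no match to any of the motifs, nor did the other Nr1h3 window. The Pparg window held an AGGTCA half-site 9 bases before the start, inside an LXR repeat with 3 mismatches, and another Pparg window, not printed, held a half-site. The Abca1 window held an LXR repeat with 3 mismatches on the strand opposite to the printed one, with its first printed base 67 bases before the start. The Plin2 window held a PPAR repeat with 2 mismatches that covers a half-site, a further PPAR repeat with 3 mismatches and an NF-κB consensus. Of the windows not printed, 1 of Apoe held PPAR repeats with 3 mismatches, and that of Mylip held no match. Of 32851 promoter windows in the table, 16.3% held the half-site, 21.9% the LXR repeat at this tolerance, 24.6% the PPAR repeat, 6.95% the STAT6 motif and 8.46% the NF-κB consensus. None of the 11 windows held the STAT6 motif. A match describes these letters only.

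The fatty acid binding proteins carry fatty acids through the cytosol, and Fabp4 is a classical PPAR-γ target. Fabp4 read 11.88 (IL-1α) and 11.89 (vehicle) in M2 cells, against 9.06 (IL-1α) and 9.05 (vehicle) in M1 cells. This was the largest M2 minus M1 difference of the 10 genes, 7.06-fold under IL-1α and 7.19-fold under vehicle, and 89 of 10489 genes had a higher one under vehicle. The limma phenotype effect was 2.83 ± 0.07 (SE, limma adjusted p = 1.39e-11).

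Fabp5 read 13.06 (IL-1α) and 12.97 (vehicle) in M2 cells, against 12.06 (IL-1α) and 12.15 (vehicle) in M1 cells. The M2 arrays were higher by 2.01-fold under IL-1α and 1.77-fold under vehicle, and the limma effect was 0.92 ± 0.05 (SE, limma adjusted p = 3.87e-08). Its 2 probe sets differed by at most 0.0136 in any difference between arrays. Of the other 5 members of the family measured, Fabp7 went the other way at 8.79 and 8.54 in M2 (IL-1α, vehicle) and 11.32 and 11.24 in M1. Fabp3 reached the floor on the IL-1α arrays only, at 7.97 in M2 and 7.64 in M1, and Fabp1, Fabp2 and Fabp6 read under the floor on all 4 arrays.

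Lpl and Plin2 stand for uptake and storage. Lpl, the lipase that frees fatty acids from lipoprotein triglyceride, read 13.60 (IL-1α) and 13.61 (vehicle) in M2 cells, against 12.83 (IL-1α) and 12.91 (vehicle) in M1 cells. It was 1.70-fold higher in M2 under IL-1α and 1.63-fold higher under vehicle (limma effect 0.74 ± 0.04 SE, limma adjusted p = 3.07e-08). Plin2, which coats lipid droplets, read 13.61 (IL-1α) and 13.66 (vehicle) in M2 cells, against 13.27 on both M1 arrays. Its difference was smaller, at 0.33 under IL-1α and 0.40 under vehicle, and limma called it (0.37 ± 0.04 SE, limma adjusted p = 1.08e-05). On both M2 arrays, Lpl and Plin2 read within 1 log2 unit of the brightest probe set of the array (14.47).

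The genes of cholesterol efflux differed in size. Abca1, the transporter that loads cholesterol onto lipid-poor apolipoprotein A-I, read 12.02 (IL-1α) and 11.86 (vehicle) in M2 cells, against 11.07 (IL-1α) and 10.92 (vehicle) in M1 cells. Abcg1, which delivers cholesterol to high-density lipoprotein, read 13.16 (IL-1α) and 13.22 (vehicle) in M2 cells, against 12.20 on both M1 arrays. For both genes the M2 arrays lay above the M1 arrays. The folds under IL-1α and vehicle were 1.93 and 1.92 for Abca1 and 1.96 and 2.03 for Abcg1. The limma effects were 0.95 ± 0.06 for Abca1 (SE, limma adjusted p = 4.37e-08) and 1.00 ± 0.05 for Abcg1 (SE, limma adjusted p = 4.63e-09).

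Apoe, the secreted apolipoprotein that accepts cholesterol, read 12.93 (IL-1α) and 12.89 (vehicle) in M2 cells, against 12.90 (IL-1α) and 12.74 (vehicle) in M1 cells. The M2 vehicle array lay just below the M1 IL-1α array. Within each treatment, the M2 minus M1 difference of Apoe was only 0.03 under IL-1α and 0.15 under vehicle. It was not called by limma (0.09 ± 0.05 SE, limma adjusted p = 0.123). When each array was centred by loess, the difference under IL-1α was -0.09 and the limma effect -0.01, so its direction depends on the scaling. Mylip, the ubiquitin ligase that sends the low-density lipoprotein receptor to degradation, read 9.99 (IL-1α) and 10.03 (vehicle) in M2 cells, against 10.23 (IL-1α) and 10.22 (vehicle) in M1 cells. It was lower in M2 by a small margin, -0.24 under IL-1α and -0.18 under vehicle (limma effect -0.21 ± 0.07 SE, limma adjusted p = 0.0217). Of these LXR targets, Abca1 and Abcg1 were higher in M2, where Nr1h3 was lower, Mylip was lower together with Nr1h3, and Apoe was not called. Nr1h2, which encodes the other LXR, LXR-β, was not measured by a probe set of its own. How these targets relate to the level of either receptor was not tested.

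**Figure D2:**
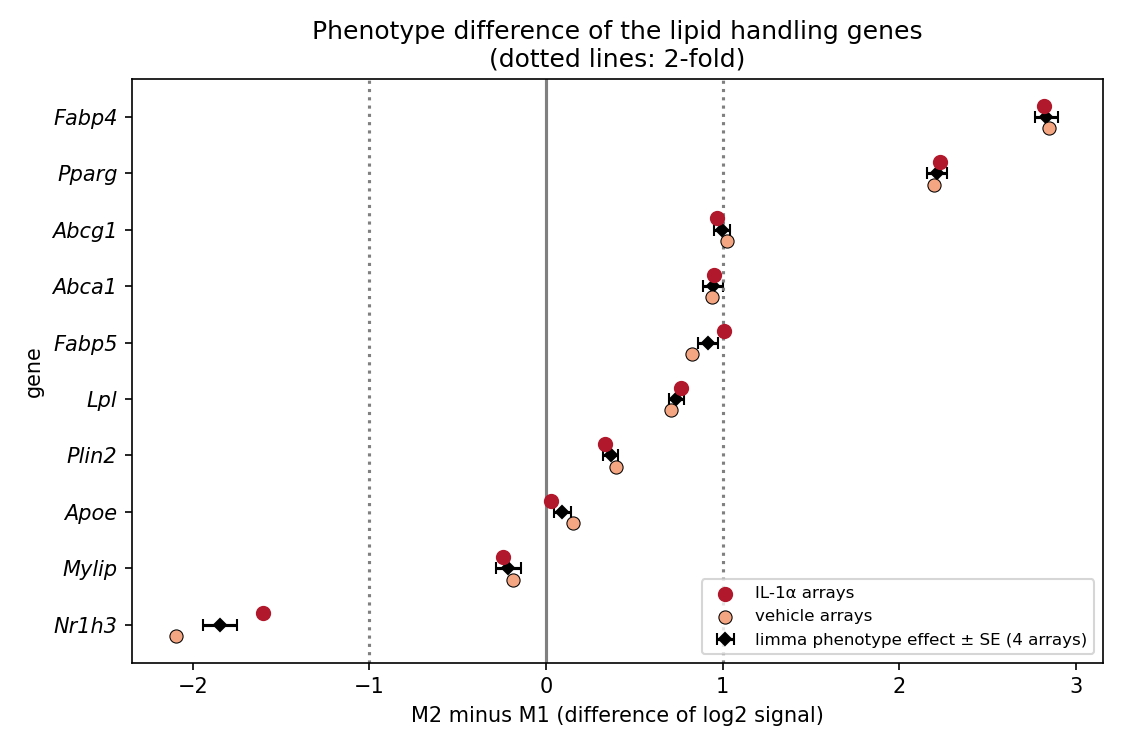
The plot gives the M2 minus M1 difference of log2 signal of each gene between the IL-1α arrays and between the vehicle arrays, with the limma phenotype effect and its SE. Fabp4 (2.83) and Pparg (2.21) lie farthest to the right and Nr1h3 (-1.85) farthest to the left, and Nr1h3 has the widest gap between its IL-1α and vehicle points.

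The response to IL-1α was small among these genes. In M2, none of the 10 differed by 2-fold from vehicle, while 0.35% of 10284 genes were at least 2-fold higher and 0% at least 2-fold lower. In M1, none of the 10 did, and 0% of 10012 genes did in either direction. The median difference of the 10 genes was -0.01 in M2 and 0.01 in M1, against 0.05 and -0.00 over all genes. As a scale for these values, the standard deviation over all genes of the difference between the M1 arrays was 0.11. For the M2 arrays this standard deviation was larger, at 0.18.

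Nr1h3 was the exception in M2. It read 10.40 with IL-1α and 9.86 with vehicle, a difference of 0.54 (1.45-fold), and 104 of 10284 genes (1.01%) had a higher one. The difference came to 25.7% of the gap between M2 and M1 under vehicle, so M2 with IL-1α remained well below both M1 arrays. In M1 it read 12.00 with IL-1α and 11.96 with vehicle, a difference of 0.04. The IL-1α difference in M2 less that in M1 was 0.49, and 186 of 10625 genes (1.75%) had a higher one. With 4 arrays this contrast leaves no residual degree of freedom and has no test. For comparison, the other 9 genes had IL-1α differences from -0.06 to 0.16 in M2 and from -0.09 to 0.16 in M1, and none of the 10 reached 2-fold in the difference of responses, against 0.32% of all genes at least 2-fold higher and 0% lower.

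Abca1 was the only other gene of the 10 past 0.11 in M2, and it stayed under the 0.18 standard deviation over all genes of the M2 pair. Its IL-1α difference was 0.16 in M2 and 0.15 in M1, so the difference of responses was 0.01. Apoe differed by 0.04 in M2 and 0.16 in M1. Among the genes higher in M2 than in M1, Fabp4 and Pparg had the largest phenotype differences, and their IL-1α differences were small. Fabp4 differed by -0.02 in M2 and 0.01 in M1, and Pparg by -0.06 in M2 and -0.09 in M1. Nr1h3, with a large phenotype difference in the other direction, differed by 0.54 in M2. In the limma fit, 0 of the 10 genes and 0% of all 10625 genes passed the test of the treatment term, which is shared by M2 and M1. At an unadjusted limma p under 0.05 there were 2 of the 10 (Nr1h3 and Abca1) and 646 of all genes. The treatment term was 0.29 ± 0.10 for Nr1h3 (SE, limma adjusted p = 0.587) and 0.16 ± 0.06 for Abca1 (SE, limma adjusted p = 0.636).

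**Figure D3:**
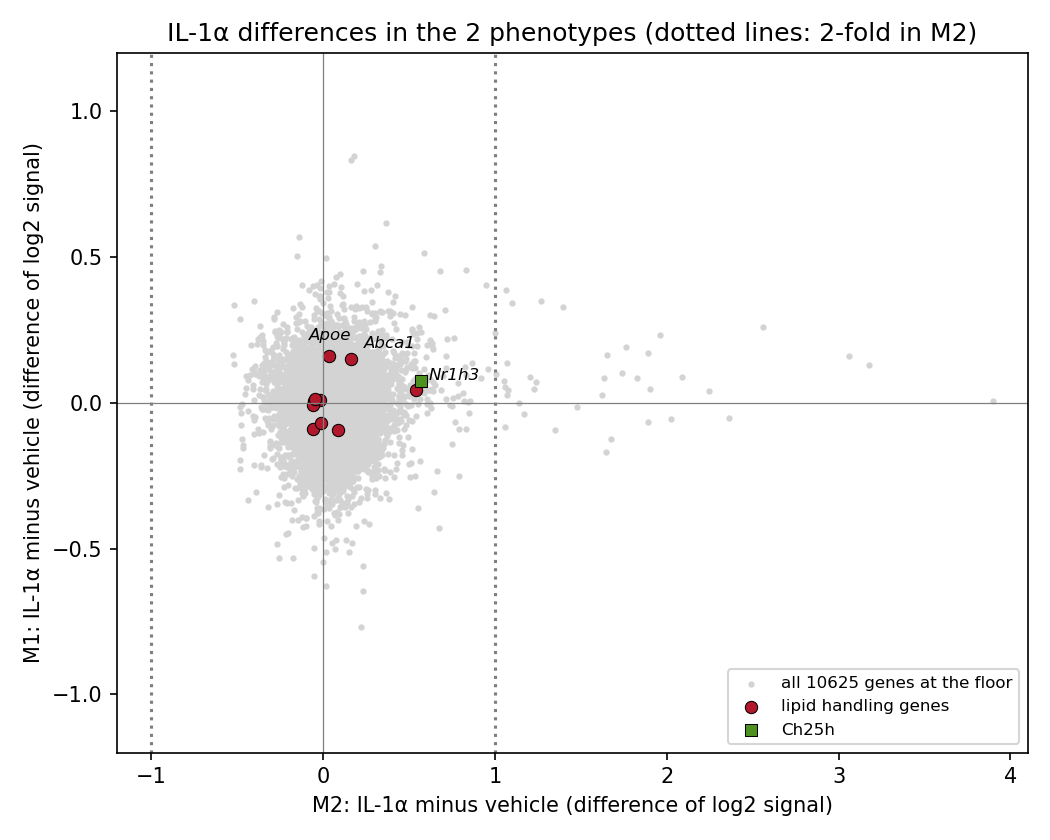
Each point is a gene, placed by its IL-1α minus vehicle difference of log2 signal in M2 (horizontal axis) and in M1 (vertical axis), with the 10 lipid handling genes in red and the oxysterol enzyme Ch25h as a square. Nr1h3 (0.54 in M2, 0.04 in M1) lies beside Ch25h and apart from the other 9, which sit between -0.06 and 0.16 in M2.

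The profiles of the 10 genes over the 4 arrays were compared by a distance that was not scaled for the size of a gene's differences. After removal of each gene's own mean, Fabp5, Abcg1, Abca1 and Lpl lay closest together, with root mean square distances of 0.07 to 0.14 log2 units between pairs. Among 10122 genes at the floor on at least 1 array, with predicted genes, olfactory and vomeronasal receptor genes and small RNA genes left out, the profiles nearest to Pparg were those of Cip2a (distance 0.03), Man2a2 (0.04) and Kif23 (0.05). Cip2a and Kif23 read under the floor on both M1 arrays, so their distances rest in part on signals not shown to be above background. Those nearest to Nr1h3 were Orai2 (0.05), a store-operated calcium channel subunit, Rasgrp1 (0.06), a Ras activator, and Plpp1 (0.07), a lipid phosphate phosphatase. Orai2 read 9.16 (IL-1α) and 8.57 (vehicle) in M2 cells, against 10.82 (IL-1α) and 10.77 (vehicle) in M1 cells. These distances rest on 4 arrays.

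The wider pathway was read from 7 lists with 73 symbols, of which 63 were measured and 46 reached the floor on at least 1 array. By the phenotype term of limma, 20 of the 46 were higher in M2 cells, where 33.2% of all genes were, and 14 were lower, where 29.3% of all genes were. The counts of single lists, which rest on 12 genes or fewer, stand against the same shares. For the treatment term, 0 of the 46 passed. Of 8 receptor partners and cofactors, 1 was called higher (33.2% of all genes) and 3 lower (29.3% of all genes), and none differed by 2-fold, as was the case for most genes. The coactivators Ncoa1 and Med1 were lower in M2, with differences under vehicle of -0.77 and -0.47, and the coactivator Ppargc1b was higher at 0.38. The dimer partner Rxra read 9.67 (IL-1α) and 9.50 (vehicle) in M2 cells, against 9.66 (IL-1α) and 9.77 (vehicle) in M1 cells, and limma did not call it (adjusted p = 0.217). Ppara and Rxrg read under the floor on all arrays, and Ppard was lower in M2 (limma effect -0.39). With IL-1α in M2, Rxra differed by 0.18, Ncoa2 by -0.08 and Rxrb by 0.06.

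Of 12 other PPAR targets and genes of fatty acid use, limma called 6 higher in M2 (33.2% of all genes) and 3 lower, near the 29.3% of all genes. The enzymes of fatty acid oxidation Acadm, Hadhb and Hadha were higher in M2 under vehicle by 1.07, 0.88 and 0.78, and limma called the lipase inhibitor Angptl4 higher too. Angptl4 read 7.69 (IL-1α) and 7.88 (vehicle) in M2 cells, against 7.19 and 7.05 in M1, both under the floor, so its difference of 0.82 under vehicle is set against a signal not shown to be above background. The scavenger receptor Cd36, a PPAR-γ target that takes up fatty acids, read 13.79 (IL-1α) and 13.82 (vehicle) in M2 cells, against 13.28 (IL-1α) and 13.26 (vehicle) in M1 cells. Cpt1a, Acadvl and Slc25a20 were called lower.

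Of 9 other LXR targets, 6 were called higher (33.2% of all genes) and 2 lower (29.3% of all genes), and their median difference under vehicle was 0.90. The higher ones were led by the fatty acid desaturases Scd1 (3.87) and Scd2 (2.15) and by the fatty acid synthase Fasn (1.91), with the phospholipid remodelling enzyme Lpcat3 at 1.18. Smpdl3a, a phosphodiesterase of the sphingomyelinase family, was lower with a difference of -1.30 (11.53 in M2 and 12.83 in M1 under vehicle), and Mertk, a receptor for apoptotic cells, with -0.90 (11.56 in M2 and 12.46 in M1). Scd1 read under the floor on both M1 arrays, so the size of its difference is likewise uncertain. Scd2 read 13.31 (IL-1α) and 13.30 (vehicle) in M2 cells, against 10.52 (IL-1α) and 11.15 (vehicle) in M1 cells.

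Of 12 lipid droplet and hydrolysis genes, 6 were called higher (33.2% of all genes) and 4 lower, near the 29.3% of all genes. Mgll, which cleaves monoacylglycerol, had the largest difference under vehicle, 3.53, with 11.10 (IL-1α) and 10.86 (vehicle) in M2 cells, against 7.17 and 7.33 in M1, both under the floor. The hormone-sensitive lipase Lipe (-0.86) and the lipase inhibitor Hilpda (-0.83) were lower in M2. Of the oxysterol enzymes, Cyp27a1, which makes 27-hydroxycholesterol, was higher in M2, at 10.44 and 10.68 (IL-1α, vehicle) against 8.42 and 8.62 in M1. Ch25h, which makes 25-hydroxycholesterol, was lower in M2, at 8.62 with IL-1α and 8.05 with vehicle, against 9.85 and 9.77 in M1. limma called both (adjusted p = 7.62e-10 for Cyp27a1 and 3.23e-07 for Ch25h).

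**Figure D4:**
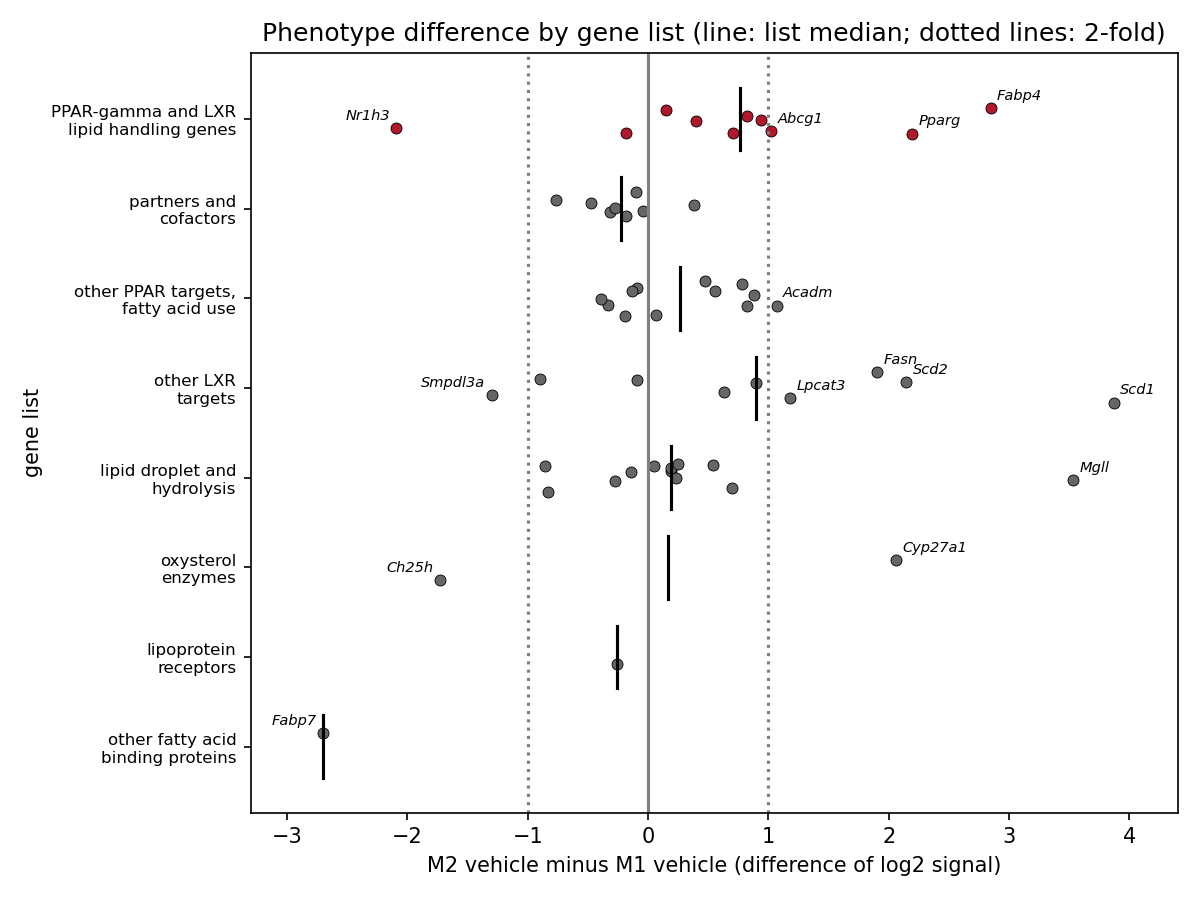
Each point is a gene at the floor on a vehicle array, placed by its M2 minus M1 difference of log2 signal under vehicle, by list, with a line at the list median. The lipid handling genes (median 0.77) and the other LXR targets (median 0.90) spread to the right with Nr1h3 (-2.09) and Smpdl3a (-1.30) on the left, while partners and cofactors stay within 2-fold.

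With IL-1α in M2, the 45 pathway genes at the floor on an M2 array had differences from -0.45 (Gpihbp1, which anchors the lipase Lpl) to 0.57 (Ch25h), with a median of 0.02. None reached 2-fold. Ch25h, like Nr1h3, was lower in M2 than in M1 and higher in M2 with IL-1α than with vehicle, and in M1 it differed by 0.07. Fabp3 (0.40), Slc25a20 (0.27), Lrp8 (0.25), Fabp7 (0.25) and Mgll (0.24) had positive differences in M2, and Dgat2 (-0.31), Cyp27a1 (-0.24), Mertk (-0.20) and Angptl4 (-0.19) negative ones. Some of these signals lay near the floor. In M2, Dgat2 read 7.35 with IL-1α, under the floor, and 7.66 with vehicle, and Fabp3 read 7.57 with vehicle, under the floor. Angptl4 (7.69 with IL-1α, 7.88 with vehicle) and Gpihbp1 (7.74 and 8.18) were not far above it. Of the lipoprotein receptors that Mylip degrades, Lrp8 read 8.88 (IL-1α) and 8.63 (vehicle) in M2 cells, against 8.88 on both M1 arrays, and Vldlr read under the floor. In M1, the 43 pathway genes at the floor on an M1 array had IL-1α differences from -0.63 (Scd2) to 0.17 (Ppargc1b). Their median was -0.0005. The difference of Scd2 in M1 was larger in size than that of Nr1h3 in M2 (0.54). Its difference of responses was 0.64, against 0.49 for Nr1h3.

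Markers of other cell types that also use these genes were read beside them. Of 6 adipocyte markers measured, 2 reached the floor on each M2 array, against 1 with IL-1α and 2 with vehicle in M1, and the mean of the list was 7.55 on both M2 arrays, against 7.37 and 7.38 in M1. Adipoq read 8.53 and 8.50 in M2 and 6.35 and 6.21 in M1 (IL-1α, vehicle), Lep, Plin1 and Retn were under the floor on all arrays, and Lipe was lower in M2. Of 7 neutrophil markers, 5 reached the floor in M2 and 0 in M1, and the list mean was 7.81 and 7.94 in M2 (IL-1α, vehicle) and 7.03 and 6.97 in M1. Ngp, a neutrophil granule protein, read 9.93 and 9.92 in M2 and 7.51 and 7.41 in M1. Of 6 dendritic cell markers, 2 reached the floor on each M2 array and 4 on each M1 array, with list means of 7.92 and 7.94 in M2 (IL-1α, vehicle) and 8.59 and 8.72 in M1. The list did not move one way: limma called Itgax and Zbtb46 higher in M2 and Clec9a, Xcr1 and Ccr7 lower, and Flt3 was under the floor on all arrays. Itgax, an integrin of dendritic cells and macrophages, read 13.31 and 13.34 in M2 and 10.38 and 10.36 in M1, and Clec9a, a dendritic cell receptor, read 5.71 and 5.62 in M2 and 9.59 and 9.97 in M1. Of 7 stromal and endothelial markers, 4 reached the floor on every array, with list means of 7.89 and 7.84 in M2 and 7.71 and 7.67 in M1. Their part in the differences of Pparg, Fabp4, Lpl and Nr1h3 was not tested.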

How the data were processed

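The authors deposited RMA-normalised log2 signals of a single-colour mouse array (1 array per group), made in Affymetrix Expression Console according to the submitters' processing notes. Its version is not given in the sources used here. RMA normalises the arrays to each other, so a global change of RNA content may not show. The array medians ran from 7.32 to 7.38. Arrays carry no counts, and their number limits the precision.

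The platform annotation gave 21789 of 35556 probe sets a single gene, and 21698 of those matched RefSeq (GRCm38.p6) by Entrez number. Probe sets with several genes (1621) or without a gene (12146) were left out, and probe sets of a gene were averaged. Differences were counted at 2-fold where the gene reached the floor on at least 1 array compared. limma 3.58.1 in R 4.3.3 (lmFit, eBayes with trend, Benjamini-Hochberg threshold 0.05) was fitted over the 10625 genes that reached the floor on any array. The steps were tested on simulated data.

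The text names all 10 genes, up to 3 genes per pathway list by size of difference (M2 minus M1 under vehicle, and IL-1α in M2), and the 3 nearest profiles of each receptor gene. Ppara, Ppard, Rxrg, Hadha, Cd36, Cpt1a, Lpcat3, Vldlr, Fabp1, Fabp2, Fabp6 and the markers were named after their values were seen. The genes and lists were chosen with earlier results of these data known. Alternatives covered the fold threshold (1.5), the floor (none, or 9.63, the 75th percentile), loess centring, another quantile normalisation, taking only the brightest probe set, and eBayes robust or without trend.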

Additional observations from a re-analysis of the deposited data

How the results depend on the processing

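Under the 1.5-fold threshold, 7 of the 10 genes passed between the phenotypes in place of 4, both under IL-1α (6 higher, 1 lower) and under vehicle (6 higher, 1 lower). Of all genes, 2937 of 10479 passed it under IL-1α (1740 higher, 1197 lower). Under vehicle 2877 of 10489 did (1477 higher, 1400 lower). Under loess centring the count was 3 in each comparison, because Fabp5 under IL-1α (0.90) and Abcg1 under vehicle (0.94) slipped under 2-fold. With that centring, 1484 of 10515 genes passed 2-fold under IL-1α and 1448 of 10459 under vehicle. No gene of the 10 passed for IL-1α in either phenotype, or for the difference of responses, under any of the 6 alternatives run. limma called 9 of the 10 for phenotype, 7 higher and 2 lower, and 0 for the common IL-1α effect, in all 7 alternatives. As reported, it called 6639 of all 10625 genes for phenotype. The calls held, but the size of the p-values depended on the eBayes setting. For Nr1h3 the limma adjusted p was 1.15e-08 as reported, 1.74e-05 without trend and 0.000494 with robust eBayes. For Plin2 it was 1.08e-05 as reported and 0.00403 without trend. Of 150 differences recomputed with loess centring, quantile normalisation or the brightest probe set, 147 moved by less than 0.11, 3 moved by more (Lpl to 0.64, Plin2 to 0.20 and Apoe to -0.09, all M2 minus M1 under IL-1α with loess centring) and no difference past 2-fold changed sign. Over all genes, the 1.5-fold threshold gave 90 genes for IL-1α in M2 in place of 36, 6 in M1 in place of 0, 2937 between phenotypes under IL-1α in place of 1489, 2877 under vehicle in place of 1453 and 123 for the difference of responses in place of 34. The higher floor gave 19 for IL-1α in M2, 4330 phenotype calls in limma among 5801 genes in place of 6639 among 10625, and 1 call for the common IL-1α effect, and no floor gave 1 for IL-1α in M1. The limma phenotype effect of Apoe, which was not called, was -0.01 with loess centring in place of 0.09. For the count at 1.5-fold the lower threshold is the difference. For loess centring the cause was not tested. No paired analysis was possible because each group holds 1 array. Each group's lack of a replicate limits every value. Signal near the top of the array limits Lpl and Plin2 among the 10 genes, and likewise Cd36, at 13.79 (IL-1α) and 13.82 (vehicle) in M2.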

Other observations

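The sign of the IL-1α difference was opposite in M2 and M1 for Fabp4, Fabp5, Plin2 and Mylip. The largest of these differences was 0.09 in size, under the 0.11 standard deviation over genes of the M1 pair. Taken with its sign, the M2 minus M1 difference was higher under IL-1α than under vehicle for 5 of the 10 genes, against 7028 of all 10625 genes. It was lower for the other 5, against 3597 of all genes.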
